A study of Mus musculus with 13 samples.

Results

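Neurofilaments and microtubules are the paired cables of the axon. The 10 genes described here encode the neurofilament chains (Nefl, Nefm, Nefh and Ina), the related filament protein peripherin (Prph), the neuronal tubulins Tubb3 and Tuba1a, and the microtubule-associated proteins Map2, Mapt (tau) and Map1b. They were taken by name, each represented by its brightest probe set that carries a single gene symbol, and are 10 of 19938 genes tested. The tissue was the cerebral meninges, the membranes that cover the forebrain, dissected from C57BL6 pups of 1 litter (C57BL/6J in the study's methods) on the day of birth (postnatal day 0) and hybridised, mouse by mouse, to Affymetrix Mouse Gene 1.0 ST arrays. The 4 mutants were Pdgfc-/-; Pdgfra GFP/+, that is, without the ligand PDGF-C and with 1 copy of its receptor gene replaced by a null allele that places GFP under the Pdgfra promoter. The 9 controls were all other pups of the litter, pooled. These carried any Pdgfc genotype, Pdgfc-/- included, with both Pdgfra copies, or the GFP allele beside at least 1 intact Pdgfc copy, and which control had which genotype is not given in the sources used here. The labels name no treatment, and all values come from that 1 litter.

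Neurofilaments are intermediate filaments assembled from light, medium and heavy chains together with alpha-internexin, the product of Ina, which appears early in developing central neurons. The heavy chain is a late gene that accumulates as axons mature and thicken, and peripherin is mainly a filament of peripheral neurons and of those central neurons whose axons leave the brain. Microtubules are polymers of alpha- and beta-tubulin; class III beta-tubulin (Tubb3) is largely neuronal, whereas Tuba1a is the main alpha-tubulin of the developing brain and is also found in other cells. MAP2 binds microtubules of dendrites, tau those of axons, and MAP1B those of growing axons.

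The genotype was read first. Pdgfc read 25.7 ± 3.41 (SD) over the 4 mutants and 164 ± 86.8 (SD) over the 9 controls, and Pdgfra 1078 ± 352 and 1764 ± 429 (adjusted p = 0.00772 and 0.0276). Control 2 had the lowest Pdgfc intensity of all mice, 5.88. Markers of meningeal fibroblasts were bright in every mouse, with a summed intensity of 28331 to 43261 in mutants and 36033 to 47358 in controls over 15 genes. A Y-linked transcript, Eif2s3y, was seen in all 4 mutants but in 3 of the 9 controls, so sex and genotype were unequally mixed. Array medians ran from 56.0 to 89.7 in mutants and from 44.1 to 89.0 in controls; mutant 3 and controls 1, 3 and 6 were the dimmest.

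Of the 10 genes, 8 rose in the mutant meninges and 2, Nefh and Prph, did not pass the test. Nefl led with a 13.6-fold rise, followed by Mapt (10.5-fold), Tubb3 (10.4-fold), Ina (8.24-fold) and Map2 (6.45-fold), and smaller rises were found for Nefm (3.0-fold), Map1b (2.15-fold) and Tuba1a (1.92-fold). A gene rose or fell where limma, fitted on log2(intensity + 16) over all genes, gave a Benjamini-Hochberg adjusted p under 0.05; by that rule 8.58% of all genes rose and 6.31% fell. Over 2-fold higher were 7 of the 10, against 3.28% of all genes. In all 8 genes that rose, every mutant lay above every control, which held for 6.4% of all genes. The median change of the 10 genes was 2.14 on the log2 scale and that of all genes was 0.00. In these bulk samples a change in the number of cells of a type and a change in the RNA of each cell cannot be told apart. The study itself reported a rise of neuronal genes on these arrays, Tubb3 among them. The direction of rises in neuronal genes is therefore no independent evidence here. By protein staining at postnatal day 2, it also saw neurofilament-positive fibres reach the meninges of mutants at focal sites. Staining for NeuN, a protein of neuronal nuclei, gave a similar picture, and electron microscopy showed neuronal tissue in the meninges in some areas. The study also described mutant meninges as fragile and harder to peel from the brain. How much cortex came with the dissected tissue was not tested.

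**Figure D1:**
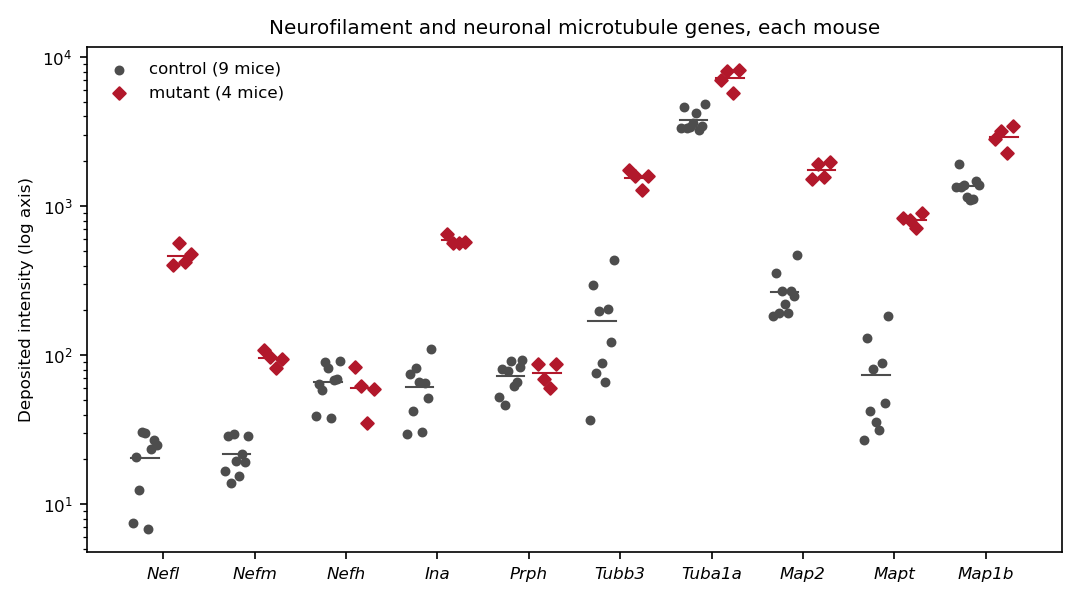
Deposited intensity (log axis) of each of the 10 genes in each mouse; grey circles are the 9 controls, red diamonds the 4 mutants, and bars the group means. The groups are apart in 8 genes and overlap in Nefh and Prph; Tubb3 and Mapt spread most widely among controls.

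The light chain gene, Nefl, had intensities of 400, 566, 425 and 474 in mutants 1 to 4. In controls it ran from 6.79 over a median of 23.6 to 30.8, below the median of the array in each mouse, and 3 controls lay under the constant of 16. The groups were thus far apart: the lowest mutant was 13 times the highest control. Mutants averaged 466 ± 72.9 (SD, n = 4) and controls 20.4 ± 9.29 (SD, n = 9), and the log2 change was 3.76 (standard error 0.19, adjusted p = 1.42e-10). Because controls lie near the added constant, that change understates the ratio of the means, which was 22.8, and the files hold no detection call that would tell whether control Nefl exceeds background.

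The medium chain gene, Nefm, lies beside Nefl on chromosome 14 in RefSeq (GRCm38.p6), with 1 gene model that codes for no protein between them. Its mutants read 109, 97.7, 82.5 and 94.4, and its controls 14 to 29.9 with a median of 19.5. It too was without overlap, at a dimmer signal, with a log2 change of 1.58 (standard error 0.14, adjusted p = 5.58e-08). Of the 9 controls, 2 lay under 16, and with a constant of 1 the log2 change was 2.14.

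The heavy chain gene, Nefh, behaved otherwise. Its mutants read 83.9, 62.3, 35.2 and 59.7, and its controls ranged from 37.9 to 91.4 with a median of 68.6. The mutants therefore lay inside the controls' range but for mutant 3, the dimmest mutant array, which was below all of them. Nefh thus changed by -0.12 on the log2 scale (standard error 0.20, adjusted p = 0.911), with a 95% interval from -0.53 to 0.30, or 0.691- to 1.23-fold. Rises of the size seen for Nefm, Map1b or Tuba1a are outside that interval, although smaller changes within it, in either direction, are not. The interval covers the signal of the probe set only. Over the controls that signal followed the array median (r = 0.93), and no detection call tells whether it exceeds background. Without mutant 3 the change was 0.06, and centred on fibroblast genes, with the median of all genes at 0.38, it was 0.26.

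For pairs of genes, the log2 difference was taken in each mouse, and its mean over mutants was compared with that over controls. So compared, the light chain changed more than the medium chain by 2.18 (log2, standard error 0.16) and more than the heavy chain by 3.88 (0.23). The medium chain changed more than the heavy chain by 1.70 (0.16). Each of these gave an exact two-sided permutation p = 0.00140, the smallest that the 715 splits of 13 mice into 4 and 9 allow, and 0.00163 after adjustment over 7 pairs of related genes, which were picked after the values had been seen. Each difference between probe sets also holds how strongly each probe set responds, which was not tested. With a constant of 1 the same 3 differences were 2.46, 4.75 and 2.28.

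Ina, which encodes alpha-internexin, read 652, 563, 570 and 578 in the mutants and 29.8 to 110 in controls, with a median of 64.9. The mutants were closely alike, the highest being 1.16 times the lowest, while the controls spread 3.71-fold. Its log2 change was 3.04 (standard error 0.22, adjusted p = 4.53e-09). A second, dimmer probe set of Ina read 473 ± 38.8 (SD, n = 4) and 44.0 ± 23.8 (SD, n = 9), a log2 change of 3.12, so both probe sets moved by about the same amount.

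Prph read 88.1, 68.8, 60.0 and 88.0 in the mutants and 46.6 to 92.9 in controls, with a median of 78.6. All 4 mutants lay within the controls. As for Nefh, the signal followed the array median over the controls (r = 0.86), and no detection call tells whether it exceeds background. Prph changed by 0.07 on the log2 scale (standard error 0.16, adjusted p = 0.955), with a 95% interval from -0.27 to 0.40, or 0.831- to 1.32-fold. With arrays centred on fibroblast genes, which moved the median of all genes to 0.38, Prph had 0.44 (adjusted p = 0.0461), and with other scalings its sign turned. Compared between the groups as a pair, Ina changed more than Prph by 2.98 (log2, standard error 0.14), with an exact permutation p = 0.00140, or 0.00163 adjusted over the 7 pairs.

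Promoter windows from RefSeq (GRCm38.p6) matched 6 of the 10 genes: Ina, Prph, Tubb3, Tuba1a, Map2 and Map1b. The 250 bases before the annotated start of 3 of them are shown, since Ina and Tubb3 rose while Prph, a filament gene like Ina, did not pass the test. The windows are chr19:47014431-47014680 (plus strand) for Ina, chr15:99054924-99055173 (plus strand) for Prph and chr8:123411303-123411552 (plus strand) for Tubb3. Capitals mark matches, on either strand, to the TATA box (searched as TATAAA), the GC box (searched as GGGCGG), the CCAAT box (searched by those letters) and to CAGCACC, a piece of the RE1 element, which the neuronal repressor REST binds. No match overlapped another.
Ina: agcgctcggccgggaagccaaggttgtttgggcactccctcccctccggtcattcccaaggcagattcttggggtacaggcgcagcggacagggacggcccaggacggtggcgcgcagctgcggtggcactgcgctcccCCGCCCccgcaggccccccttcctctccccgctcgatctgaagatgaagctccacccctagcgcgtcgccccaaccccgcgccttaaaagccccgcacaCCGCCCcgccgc
Prph: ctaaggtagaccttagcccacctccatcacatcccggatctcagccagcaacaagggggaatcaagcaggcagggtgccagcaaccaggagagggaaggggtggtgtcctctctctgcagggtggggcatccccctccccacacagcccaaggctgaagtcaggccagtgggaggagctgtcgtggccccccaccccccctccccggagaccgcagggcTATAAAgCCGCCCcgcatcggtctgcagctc
Tubb3: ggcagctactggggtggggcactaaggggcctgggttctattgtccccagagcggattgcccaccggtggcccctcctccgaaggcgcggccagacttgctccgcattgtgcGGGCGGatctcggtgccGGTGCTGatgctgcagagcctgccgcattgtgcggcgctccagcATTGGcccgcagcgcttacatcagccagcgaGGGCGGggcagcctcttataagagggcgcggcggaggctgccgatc

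In these windows Ina held 2 GC boxes, and Tubb3 held 2 GC boxes, a CCAAT box and 1 piece of RE1 on the minus strand. Prph held a TATA box beginning 31 bases before the start followed by 1 GC box. Only the exact letters TATAAA were counted, so the shorter TATAA, which the Tubb3 and Tuba1a windows hold, was not marked. The difference between Prph and Tubb3 in this count thus depends on the letters searched. Of all 32851 promoter windows of the same length, 12.4% held the TATA box, 32.7% the GC box, 33.9% the CCAAT box and 5.73% the piece of RE1. Map2 had 5 GC boxes, and Tuba1a a CCAAT box and a GC box. Map1b had a GC box and a match to TATAAA that begins 99 bases before the start, farther upstream than that of Prph. Neither the cAMP response element (TGACGTCA, in 1.55% of windows) nor the E-box with the letters CACGTG (in 6.02%) was among the letters of the 6 windows. The windows also differed in CpG content. Ina had 25 CpG, Tubb3 21, Map2 34, Map1b 19 and Tuba1a 11, whereas Prph had 7, against a median of 6 over all windows, even though GC content was 65.2% in Prph and 70.8% in Ina. These are descriptions of letters in a window, and no binding was measured.

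Tubb3, the neuronal beta-tubulin, read 1747, 1582, 1283 and 1598 in the mutants. In controls it ran from 36.7 over a median of 123 to 439, an 11.9-fold spread that was the widest of the 10 genes. Even so, the lowest mutant was 2.92 times the highest control, which was control 9, and the next control was control 2 at 297. The log2 change was 3.37 (standard error 0.41, adjusted p = 3.93e-06). Without controls 2 and 9, a choice made after their values had been seen, it was 3.75.

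Tuba1a, the alpha-tubulin, was bright in every mouse, with mutants at 6983, 8100, 5766 and 8196 and controls between 3262 and 4821 around a median of 3444. The groups did not overlap, though the gap was narrow: the lowest mutant was 1.20 times the highest control. On the log2 scale Tuba1a rose by 0.94 (standard error 0.14, adjusted p = 7.61e-05). A further 3 probe sets carry the symbols of Tuba1a, Tuba1b and Tuba1c together, and their log2 changes were 0.59, 0.50 and 0.58 (adjusted p over all probe sets = 0.00719, 0.0214 and 0.00665). Since alpha-tubulin genes are nearly identical in sequence, the share of each in these signals is uncertain. Compared between the groups as a pair, Tubb3 changed more than Tuba1a by 2.43 (log2, standard error 0.31), with an exact permutation p = 0.00140 and 0.00163 adjusted over the 7 pairs.

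Map2, the dendritic microtubule-associated protein, read 1530, 1928, 1562 and 1964 in mutants and 184 to 471 in controls, with a median of 249. The mutants sat well clear, the lowest being 3.25 times the highest control. This gave a log2 change of 2.69 (standard error 0.20, adjusted p = 6.44e-09).

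Mapt, which encodes tau, read 828, 813, 711 and 898 in mutants and 26.9 to 183 in controls, with a median of 48.0. Here the controls spread 6.82-fold, with controls 9 and 2 again the highest, and the mutants only 1.26-fold. Mapt rose by 3.39 on the log2 scale (standard error 0.32, adjusted p = 1.36e-07). Compared between the groups as a pair, Mapt changed more than Map2 by 0.70 (log2, standard error 0.15), with an exact permutation p = 0.00699, both raw and adjusted over the 7 pairs.

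Map1b, a protein of growing axons, read 2835, 3201, 2265 and 3430 in mutants and 1100 to 1910 in controls, with a median of 1343. As for Tuba1a, control tissue already gave a strong signal, and the lowest mutant was 1.19 times the highest control. The log2 change was 1.10 (standard error 0.15, adjusted p = 2.07e-05). Map2 changed more than Map1b by 1.59 (log2, standard error 0.15; exact permutation p = 0.00140, adjusted 0.00163).

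**Figure D2:**
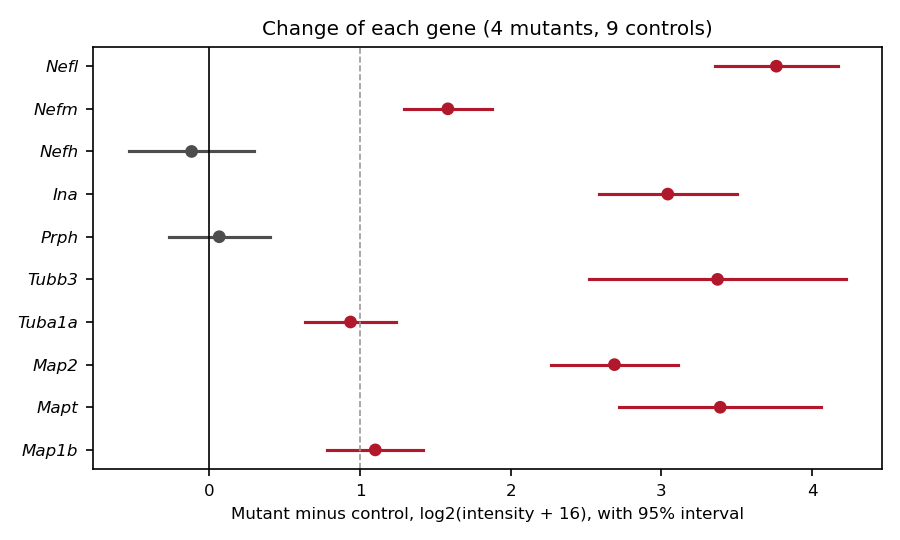
Mutant minus control change of each gene on the log2(intensity + 16) scale, with its 95% interval from limma (4 mutants, 9 controls); red, adjusted p under 0.05; grey, not; the dashed line marks a 2-fold rise. The intervals of Nefh and Prph span 0, those of Tuba1a and Map1b span the 2-fold line, and Nefl is farthest to the right.

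The comparison was repeated within 1 sex and without the dim arrays. In the 7 mice with a Y-linked signal (4 mutants and 3 controls), the same 8 genes passed the test, with log2 changes of 3.73 for Nefl, 4.09 for Tubb3, 3.98 for Mapt, 3.26 for Ina, 2.91 for Map2, 1.69 for Nefm, 1.12 for Map1b and 1.05 for Tuba1a. Nefh had -0.06 and Prph 0.02. Here the changes of Tubb3 and Mapt were the highest of the 10, above that of Nefl, and controls 2 and 9 are not among these mice. Without mutant 3 and controls 1, 3 and 6, the dimmest arrays, the 8 genes again passed, with log2 changes from 1.02 for Tuba1a to 3.55 for Nefl, and Tubb3 came to 2.94.

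The controls themselves varied in neuronal genes. In 8 of the 10 genes the highest control was control 2 or control 9, and in 9 of the 10 the lowest was 1 of the dim arrays 1, 3 and 6. Over the 9 controls, 65 relations were computed: 45 between pairs of the 10 genes, 10 with the mean of 21 other pan-neuronal genes and 10 with the array median. The closest pair was Tubb3 and Mapt, with Pearson's r = 0.98 (exact permutation p = 1.38e-05, adjusted p = 0.000448) and Spearman's rho = 0.98 (exact permutation p = 4.96e-05, adjusted p = 0.00322), and r = 0.98 without the controls farthest from the median, 1 and 9. After each array was centred on its median, r was 0.96 (adjusted exact permutation p = 0.00197) and rho 0.93 (adjusted exact permutation p = 0.0361) over 55 relations, and r without controls 2 and 9 was 0.90. It was the only pair of the 45 that passed by both measures after centring, where 11 had passed before.

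Other relations moved with array brightness. Nefl and Nefh had r = 0.94 (exact permutation p = 0.000300, adjusted 0.00217) and rho = 0.90 (exact permutation p = 0.00203, adjusted 0.0110), and r = 0.78 without controls 1 and 6. Each of them also followed the array median, with r = 0.93 and rho = 0.82 for Nefl (exact permutation p = 0.000998 and 0.0108, adjusted 0.00482 and 0.0333) and r = 0.93 and rho = 0.93 for Nefh (exact permutation p = 0.000179 and 0.000750, adjusted 0.00166 and 0.00696). Without controls 3 and 6 these r were 0.86 and 0.96. Once centred, Nefl and Nefh had r = 0.79 and rho = 0.67, with adjusted exact permutation p = 0.0692 and 0.270. Nefl and Nefm, the neighbours on chromosome 14, had r = 0.67 before centring and -0.43 after, and neither passed (adjusted exact permutation p = 0.0835 and 0.553).

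Against the other pan-neuronal genes, a list that includes Snap25 and Syt1 and none of the 10, Mapt followed most closely once arrays were centred (r = 0.96, adjusted exact permutation p = 0.00197; rho = 0.92, adjusted exact permutation p = 0.0361; r = 0.92 without controls 5 and 9). Map2, Tubb3 and Ina passed by r (0.91, 0.88 and 0.83; adjusted exact permutation p = 0.0120, 0.0151 and 0.0368) but not by rho. Nefl had r = 0.05, Tuba1a 0.08, Map1b 0.06, Nefm 0.43, Nefh 0.36 and Prph -0.25. None of these passed by either measure once centred (for Nefm, adjusted exact permutation p = 0.553 for r and 0.508 for rho). Before centring, all 10 had a positive r with these genes. Nefm (r = 0.90, rho = 0.88; adjusted exact permutation p = 0.00482 and 0.0125) passed by both measures, as did Mapt, Map2, Tubb3 and Ina (r from 0.94 to 0.95), and Nefh passed by r alone (r = 0.80, rho = 0.77; adjusted exact permutation p = 0.0266 and 0.0556). Nefl had r = 0.70, Prph 0.69, Map1b 0.53 and Tuba1a 0.52, and none of them passed by either measure. Without controls 6 and 9, r was 0.92 for Nefm and 0.63 for Nefh.

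**Figure D3:**
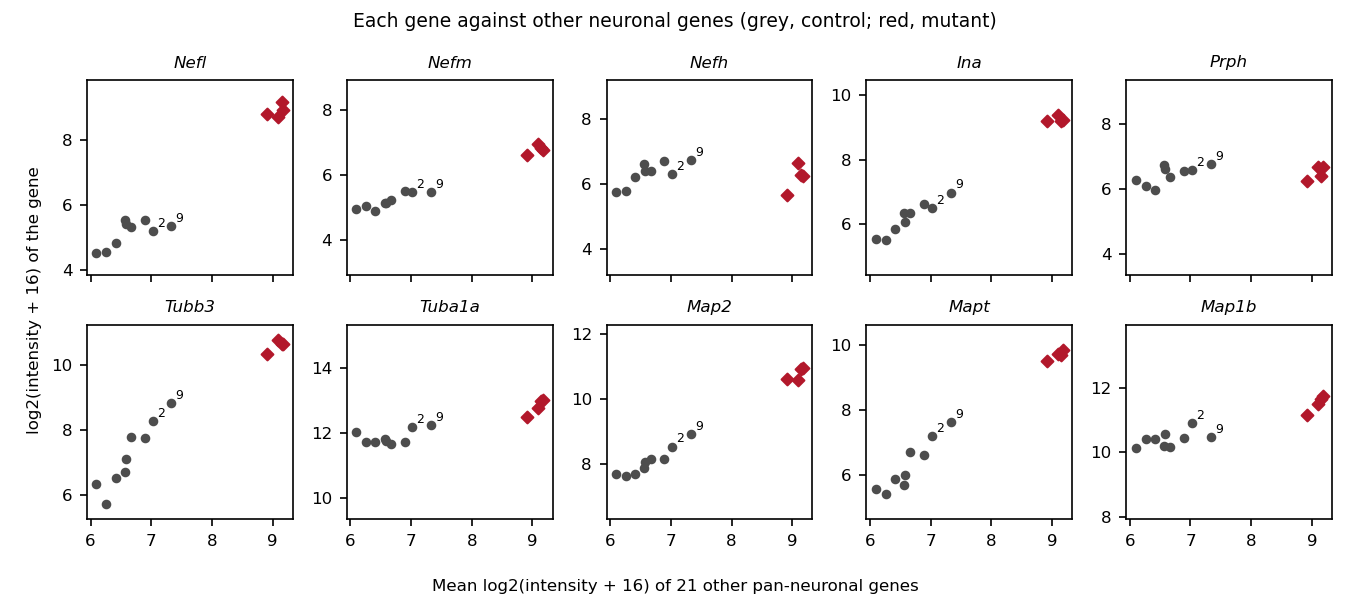
Each gene (vertical axis, log2(intensity + 16)) against the mean of 21 other pan-neuronal genes (horizontal axis, same scale) in each mouse; grey, controls; red, mutants; all panels span the same number of log2 units, and controls 2 and 9 are numbered. Tubb3, Mapt and Map2 climb along the controls towards the mutants, and Nefl steps up between the groups. In Nefh and Prph controls also climb, and mutants lie within the range of the controls but for Nefh in mutant 3. These values are not centred. Over the controls, Nefh and Prph also followed the array median (r = 0.93 and 0.86). Once arrays were centred, their r with the pan-neuronal genes was 0.36 and -0.25, and neither passed.

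The profiles most like that of Nefl over the 13 mice, by root mean square distance of log2 values centred on each gene's mean, were those of Nxph1 (a secreted neurexin ligand; distance 0.23), Bcl11b (a transcription factor of deep-layer cortical and striatal neurons; 0.27) and Gad2 (a GABA-synthesising enzyme; 0.28). Those nearest to Tubb3 were Mpped1 (0.22), Crmp1 (a collapsin response mediator, 0.23) and Syt4 (a synaptotagmin, 0.25). This distance holds the difference between mutants and controls, so genes with a like change lie close. Nxph1, Bcl11b and Gad2 had log2 changes of 3.86, 3.51 and 3.34. Whether these profiles are alike within a group was not tested.

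Genes that work with these proteins were described by lists written by hand. Over 9 lists of the neuronal cytoskeleton and its comparison filaments, 129 of 136 genes were measured, of which 69 (53.5%) rose and 2 fell, with a median log2 change of 0.47, beside 8.58% and 6.31% of all genes. Among other tubulins, 4 of 14 rose and 1 fell (median log2 change 0.33): the beta-tubulins Tubb2b (6.10-fold, 4000 ± 690 in mutants against 723 ± 402 in controls), Tubb4a (5.09-fold) and Tubb2a (4.34-fold), and Tubg2 (1.4-fold), which encodes a gamma-tubulin, while Tubd1, a delta-tubulin gene, fell 1.54-fold. Tubb5, the widely used beta-tubulin, had a log2 change of 0.37 (adjusted p = 0.0747) and Tuba4a one of 0.08. Tuba1b, Tuba1c and Tubb4b had no probe set of their own.

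Of 20 other microtubule-binding proteins, 13 rose and 0 fell (median 0.72). Dcx, encoding doublecortin of migrating neurons, rose 14.6-fold with mutants at 1889 to 2423 and controls at 48.0 to 436, its relative Dclk1 rose 4.08-fold and Jakmip2 5.85-fold. Among the stathmins, which sequester tubulin, and the severing proteins, 7 of 11 rose (median 0.53), led by Stmn3 (12.2-fold), Stmn2 (9.97-fold) and Stmn4 (8.07-fold), and Fignl1 fell 1.64-fold. Of 9 collapsin response mediators and growth cone proteins 8 rose (median 1.66), among them Dpysl5 (log2 change 3.32), Basp1 (4.24-fold) and Gap43 (3.16-fold); the ninth, Marcks, a widely expressed actin regulator, had a log2 change of 0.02.

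Motors that move cargo along axonal microtubules rose in 12 of 15 genes and fell in 0 (median 0.79), with Kif5c at 7.14-fold, Kif21b at 6.75-fold and Kif1a at 4.05-fold. Kif5b, the kinesin heavy chain of most tissues, had a log2 change of -0.22 (adjusted p = 0.359). Tubulin-modifying enzymes rose in 7 of 16 genes (median 0.27), including the acetyltransferase gene Atat1 (2.84-fold), the deglutamylase gene Agtpbp1 (2.75-fold) and Vash2 (2.20-fold), a detyrosinating enzyme. Of 21 kinases and phosphatases that act on tau or neurofilaments, 14 rose (median 0.50), with the phosphatase subunit genes Ppp2r2c (10.2-fold) and Ppp2r2b (5.79-fold) and the kinase gene Mapk10 (8.46-fold) at the smallest adjusted p. Of 10 genes of the spectrin-ankyrin skeleton and cytolinkers, 4 rose (median 0.30): Ank3 (7.04-fold), which anchors the axon initial segment, Add2 (3.83-fold), Dst (1.58-fold) and Sptan1 (1.36-fold).

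Intermediate filament genes of other cells differed from the neuronal lists. Of 13, 0 rose and 0 fell by limma, beside 8.58% and 6.31% of all genes. At those shares a list this short would hold few calls. By limma, 0 had an unadjusted p under 0.05 in either direction. The methods' t-test also gave 0 in both directions, and the median log2 change was 0.02. With other scalings 3 (quantile normalization), 4 (centred on reference genes) or 6 (centred on fibroblast genes) of the 13 rose, and 1 fell with quantile normalization or centring on the array median. Vim, the filament of mesenchymal cells and progenitors, read 5074 against 4341 (log2 change 0.22, adjusted p = 0.396), Nes 820 against 641 (0.31, adjusted p = 0.293) and Gfap, the astrocyte filament, 95.2 against 76.0 (0.26, adjusted p = 0.272).

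**Figure D4:**
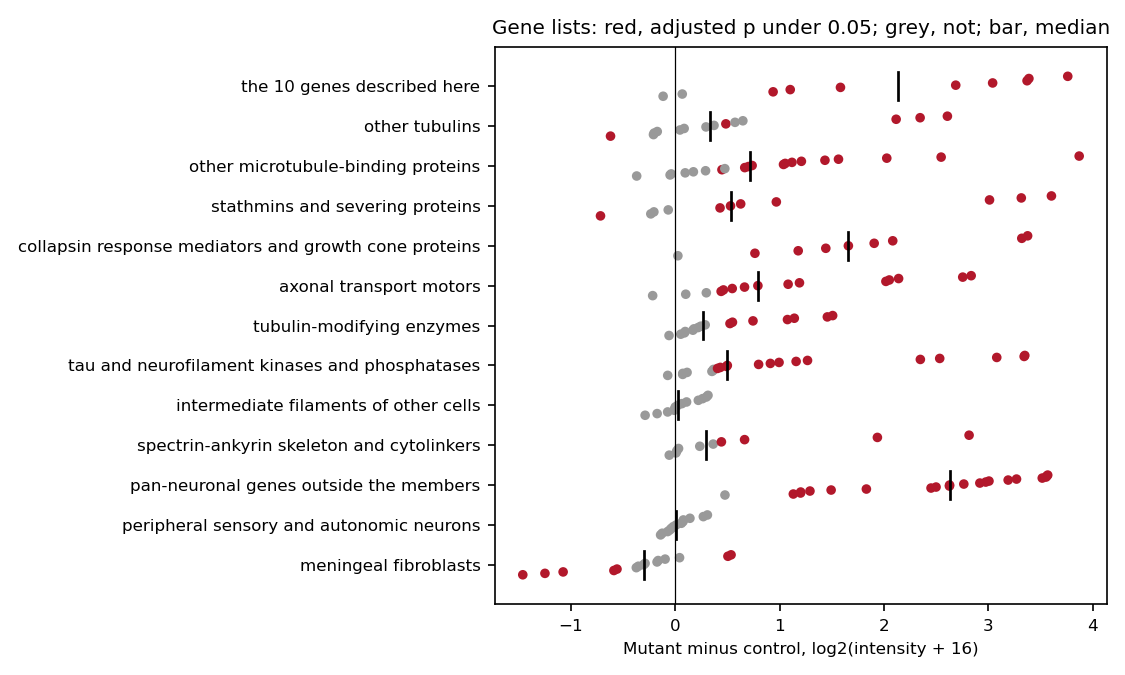
Mutant minus control change on the log2(intensity + 16) scale of each measured gene of 12 lists and of the 10 genes; red points passed the adjusted p, grey did not, and bars are medians. Cytoskeletal lists of neurons extend to the right, while filaments of other cells and peripheral neuron genes stay near 0.

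Markers of cell types did not all move with these genes. Over all genes 8.58% rose and 6.31% fell, and at those shares the shorter lists would hold few calls. Of 21 pan-neuronal genes outside the 10, 20 rose, all over 2-fold, with a median log2 change of 2.63 (Snap25 11.8-fold, Syt1 9.65-fold, Scg2 7.57-fold); their summed intensity was 14518 to 17639 in mutants and 1644 to 4227 in controls, and Thy1 did not pass (adjusted p = 0.104). Of 13 genes of peripheral sensory and autonomic neurons, where Prph and Nefh are prominent, 0 rose and 0 fell by limma and by the methods' t-test (0 also at an unadjusted p under 0.05, median 0.01). Their summed intensity was 407 to 707 in mutants and 330 to 754 in controls. Brightness varied within this list: in mutants and controls Scn10a read 14.9 and 15.8 and Trpv1 21 and 22.5, but Tac1 76.5 and 64.2 and Mrgprd 132 and 131. Of 7 Schwann cell genes 0 rose and 0 fell by limma and by the methods' t-test (0 also at an unadjusted p under 0.05), over a summed 1623 to 3204 and 2093 to 3135. Most of that sum was 1 gene, Pmp22, which averaged 2087 in mutants and 2359 in controls.

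Glial and progenitor markers were mixed, beside 8.58% of all genes that rose and 6.31% that fell. Of 6 oligodendrocyte precursor genes, 4 rose (median 1.2), Lhfpl3 2.93-fold, Ptprz1 2.55-fold and Tnr 2.42-fold among them (summed 619 to 828 against 222 to 511). Olig2 (1.06-fold) and Cspg4 (1.11-fold) of that list did not pass (limma adjusted p = 0.950 and 0.839). Of 8 progenitor genes Sox2 rose 3.99-fold and Slc1a3 fell 1.51-fold (summed 3985 to 6137 against 3150 to 5020), and of 6 astrocyte genes Gjb6 and S100b fell (summed 1244 to 2071 against 2073 to 2880). Gjb6 was the brightest of the astrocyte genes, at 666 in mutants and 1529 in controls, so the lower sum is largely that of Gjb6. Aqp4, Aldh1l1, Slc1a2 and Gfap did not pass (log2 changes -0.09, 0.49, 0.11 and 0.26). Which cells gave the Gjb6 signal was not tested. Of 15 meningeal fibroblast genes 5 fell and 2 rose (median -0.30), with Ptgds 2.76-fold, Crabp2 2.38-fold and Slc6a13 2.11-fold lower. Of 8 endothelial genes 5 fell (median -0.85), Kdr 1.90-fold and Tek 1.86-fold among them (summed 4767 to 6237 against 6690 to 13967). Among 7 macrophage and microglia genes 6 fell (median -0.96), led by Lyve1 (5.46-fold), Mrc1 (2.80-fold) and Csf1r (1.99-fold) (summed 1575 to 3352 against 4516 to 6370). The study reported the fall of Lyve1 on these arrays as that of a lymphatic marker. Mural cells (6 genes; summed 2870 to 3505 against 2450 to 5009) and erythroid cells (2 genes; summed 282 to 428 against 270 to 675) had 0 calls in either direction by limma and by the methods' t-test, with 1 mural gene up and 1 down, and 0 erythroid genes, at an unadjusted p under 0.05. Of 9 reference genes 3 fell. Several of these counts depended on the setting. The genes that fell numbered 0 (Xist level as a covariate) to 6 in endothelial cells, 1 (a test with unequal variances) to 7 in macrophages and microglia, and 1 (unequal variances) to 8 (quantile normalization) in fibroblasts. Astrocyte genes that fell numbered 0 to 2, with 1 without mutant 1 or mutant 3, and reference genes 0 to 3. Fibroblast genes that rose numbered 0 to 5, with 0 without mutant 4 and 1 without mutant 2, and oligodendrocyte precursor genes 1, without the dimmest 50% of genes, to 4. Pan-neuronal genes that rose numbered 17 to 21. The part of these shifts in the changes of the 10 genes was not tested.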

How the data were processed

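The authors extracted total RNA from the meninges of 13 pups of 1 litter, hybridised it to Mouse Gene 1.0 ST arrays and summarised the probes with PLIER. The version, background step and scaling between arrays are not given in the sources used here. The deposited values of 35557 probe sets were read as intensity on a linear scale, and since array medians differ they were not treated as normalized to 1 distribution. Arrays have no read depth, so their number limits the precision. In the annotation of the platform, 21789 probe sets carried 1 symbol, 1621 several and 12147 were not listed; for the 999 genes with several, the brightest probe set was used. Mutants and controls were compared with limma 3.58.1 (lmFit, eBayes, two-sided) in R 4.3.3 on log2(intensity + 16), with Benjamini-Hochberg adjustment over 19938 genes; the code was tested on simulated data. Exact permutation tests enumerated all splits or pairings of the mice. The authors compared these groups with a t-test, which was run as an alternative, as were other normalizations, constants, filters, probe set choices, covariates and leaving out mice. Named genes are the 10, in each list up to 3 with the lowest adjusted p, the 3 nearest to Nefl and to Tubb3, and genes of genotype and sex; others were named after their values were seen. The genes, 21 lists and tests were chosen with earlier results of these data known. Promoter windows came from RefSeq (GRCm38.p6), of which only the 250 bases before the start were used. Python 3.11.15 and matplotlib 3.10.9 were used for the figures.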

Additional observations from a re-analysis of the deposited data

How the results depend on the processing

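The number of genes that rose was 8 in 30 of 32 alternatives, 7 without the dimmest 50% of genes, where Nefm, Nefh and Prph were filtered out, and 9 when arrays were centred on fibroblast genes. The number over 2-fold higher was 7 in 22 of them, 8 in 8, where Tuba1a passed 2-fold, and 6 in 2. The 8 genes that rose kept their direction and passed in each alternative in which they were tested, with log2 changes of 3.26 to 4.60 for Nefl, 1.26 to 2.14 for Nefm, 2.78 to 3.42 for Ina, 2.94 to 4.11 for Tubb3, 0.84 to 1.31 for Tuba1a, 2.54 to 3.06 for Map2, 3.11 to 4.01 for Mapt and 0.96 to 1.48 for Map1b. Prph turned to -0.11 with array quality weights, -0.034 with quantile normalization, -0.031 centred on the array median and -0.011 without the 4 dimmest arrays, and passed at 0.44 (adjusted p = 0.0461) centred on fibroblast genes. Nefh turned to 0.070 centred on reference genes and 0.26 centred on fibroblast genes, and leaving out 1 mouse moved it between -0.26 and 0.062, the latter without mutant 3. The cause was not tested. Centring on reference or fibroblast genes moved the median of all genes to 0.19 and 0.38, so that 18% and 40% of all genes rose, and array quality weights moved it to -0.11.

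With the replicate number as a replicate block, 8 genes rose, 6 of them over 2-fold, and Nefl changed by 3.87, but same-numbered mice did not deviate together (correlations of -0.34, 0.16, 0.31 and -0.09), which gives no ground for pairing, and 545 genes fell against 1258 without the block. No mutant has the numbers of controls 5 to 9. Over all genes 1710 rose in the main comparison, against 1677 with the methods' t-test, 1139 with unequal variances, 2541 with quantile normalization, 1144 with the Xist level as a covariate and 1190 in mice with a Y-linked signal; 400, 3769, 605 and 644 fell in the last 4. Other tubulins that rose numbered 3 to 8, tubulin-modifying enzymes 5 to 13, other microtubule-binding proteins 8 to 17, motors 9 to 14, stathmins and severing proteins 4 to 7, spectrin-ankyrin genes 3 to 8, kinases and phosphatases 10 to 20 and filaments of other cells 0 to 6. Intensities of Nefl and Nefm in controls near the constant of 16 limit how precisely their folds are known.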
